A study of Zea mays with 40 samples.

Results

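The 150 genes described here were those whose expression in the maize kernel stood highest above all earlier times at 50 days after pollination (DAP), the last time sampled. They were chosen from the genes with a GRMZM name in the deposited table. For each DAP, the mean of the 8 libraries (4 inbred lines with 2 ears each) was taken in FPKM, which is a read number scaled to gene length and to the mapped reads of the library. Genes with a mean of at least 5 FPKM at 50 DAP were ranked by a score, which was the mean at 50 DAP plus 1 divided by the highest of the 4 earlier means plus 1. Of 35991 GRMZM genes, 9080 reached 5 FPKM at 50 DAP, and the 150 with the highest scores are the members. The level at 50 DAP against the earlier DAP therefore chose the members and is given as a description without a test.

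The maize kernel holds an embryo, a starchy endosperm, an aleurone layer and the maternal pericarp. After grain filling the starchy endosperm cells die, while the embryo and the aleurone stay alive and acquire tolerance to drying. Kernel RNA late in maturation thus comes from a mixture of living and dying tissues, and in whole kernels fewer cells of a type cannot be told apart from less RNA per cell.

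Kernels from the middle of the ear were sampled from the inbred lines T191, T147, T209 and T210 at 5 times, every 10 days between 10 and 50 DAP, with 2 ears for each line and DAP, which gave 40 libraries. T191 and T147 carry the numbers of lines of a recombinant inbred population, and T209 and T210 are its parents, although which of them is which parent is not in the labels. No treatment was applied, and the labels give no age other than DAP and no link between ears with the same number. With 2 ears per group, p-values rest on the spread between such ears, pooled for each gene over all 20 groups of line and DAP. Where ears differ more at 50 DAP than before, this spread is too small for 50 DAP and too large for 40 DAP.

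FPKM summed to between 544588 and 683241 per library. Sequencing depth relative to the median library, read from the steps between low FPKM values, ranged from 0.610 to 2.30 over the 40 libraries and from 0.610 to 1.07 at 50 DAP. One library stood apart for the members, which was ear 2 of T210 at 50 DAP. Its relative depth was 0.868, and its Spearman correlation over all genes tested was 0.843 with ear 1 of T210 at 50 DAP, against 0.862 and 0.849 with the ears of T210 at 40 DAP. The ears of T191, T147 and T209 at 50 DAP correlated at 0.893, 0.932 and 0.939. The main results that rest on this library are given with and without it, and its label was kept.

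The median member had a mean of 0.117 FPKM at 10 DAP, 0.690 at 20 DAP, 0.655 at 30 DAP, 1.79 at 40 DAP and 17.8 at 50 DAP. Means at 50 DAP ranged from 5.00 to 782 FPKM, and scores ranged from 3.17 to 26.9. Without ear 2 of T210 at 50 DAP, the median member mean at 50 DAP was 20.1 FPKM, and 144 of the 150 members were chosen again. Taken line by line, the mean of the 2 ears was highest at 50 DAP in all 4 lines for 143 members, in 3 lines for 6 members and in 2 lines for 1 member. All 150 members were high enough in at least 2 libraries to be tested.

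The members differed from other genes in how they were annotated, which the score did not use. Only 41 of the 150 members (27.3%) matched a gene in the RefSeq annotation of maize, against 80.5% of the other 8930 genes with at least 5 FPKM at 50 DAP. Names of the GRMZM5G series belonged to 57 members (38%) and to 6.88% of the other genes. The share with a RefSeq gene changed along the ranking. Of the first 50 members 2 had a RefSeq gene, and of the last 100 members 39 had one.

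The members with and without a RefSeq gene are described apart, with no test between them. The 41 members with a RefSeq gene had median means of 0.657, 1.35, 3.48, 8.94 and 39.3 FPKM from 10 to 50 DAP, each above the one before. The 109 members without a RefSeq gene had median means of 0.0761, 0.496, 0.393, 0.551 and 14.3 FPKM, which were near 0 at 10 DAP and stayed between 0.393 and 0.551 FPKM from 20 to 40 DAP. The highest earlier mean was at 40 DAP in 39 of the 41 members with a RefSeq gene and in 34 of the 109 others. It was at 20 DAP in 49 of the 109 and in 0 of the 41.

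**Figure D1:**
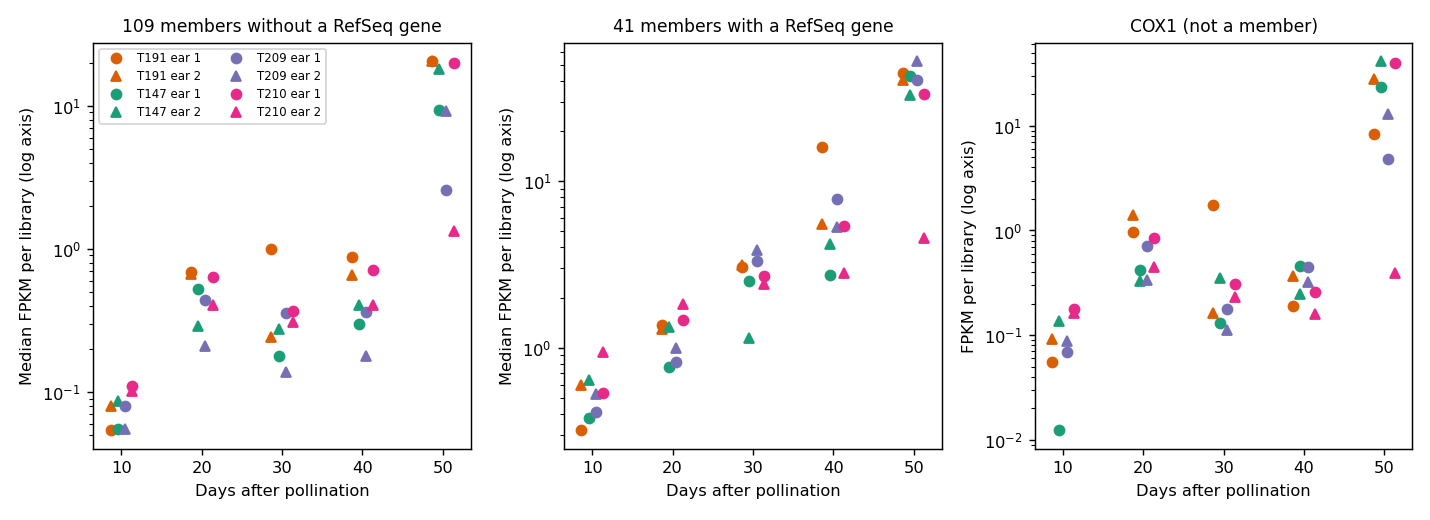
Median FPKM of the 109 members without a RefSeq gene (left) and of the 41 members with one (middle), and FPKM of COX1, which is not a member (right), in each of the 40 libraries against days after pollination, with a log vertical axis. Colours mark the lines, circles ear 1 and triangles ear 2. At 50 DAP the triangle of T210 is the lowest point in all 3 panels (1.34, 4.56 and 0.392 FPKM), and the left panel shows no climb between 20 and 40 DAP.

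The first member by score, GRMZM2G407837, had 1286 and 554 FPKM in T191, 96.8 and 545 FPKM in T147, 54.6 and 100.2 FPKM in T209, and 534 and 7.69 FPKM in T210 at 50 DAP (ear 1 and ear 2). Its means at 10, 20, 30 and 40 DAP were 1.78, 12.3, 13.8 and 6.57 FPKM. Among the 32 earlier libraries it exceeded 30 FPKM in 20 DAP ear 2 of T191 (56.1 FPKM) and 30 DAP ear 1 of T191 (83.1 FPKM), so the score was limited by single libraries of 1 line. The files and the RefSeq table give this gene no function.

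GRMZM5G851925, the second by score, had 128 and 83.4 FPKM in T191, 25.4 and 64.4 FPKM in T147, 4.28 and 27.1 FPKM in T209, and 97.4 and 1.69 FPKM in T210 at 50 DAP, after means of 0.213 to 1.07 FPKM at the earlier DAP. GRMZM5G807592 had 89.0 and 243 FPKM in T191, 145 and 297 FPKM in T147, 51.1 and 245 FPKM in T209, and 201 and 3.88 FPKM in T210. In both, ear 2 of T210 was the lowest library and ear 1 of T209 the next, while ear 1 of T210 was above both ears of T209 in GRMZM5G851925 and between them in GRMZM5G807592. GRMZM5G834282 and GRMZM5G816243 were highest in ear 1 of T191, with 165 and 117 FPKM. Their lowest values were 4.62 and 3.03 FPKM in ear 2 of T210.

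GRMZM5G866990, GRMZM5G816772, GRMZM2G371620 and GRMZM5G897755 filled the next places, with means of 29.0, 44.1, 38.2 and 20.9 FPKM at 50 DAP and no earlier mean above 1.52 FPKM. All 4 were highest in ear 2 of T191 or ear 2 of T147 and lowest in ear 2 of T210. In GRMZM5G897755 ear 2 of T210 had 0.0741 FPKM at 50 DAP, which lay below the gene's means at 20, 30 and 40 DAP. The tenth place was shared by GRMZM5G834666, GRMZM5G845496, GRMZM5G859440 and GRMZM5G876913, whose values were identical in all 40 libraries. They had 734 and 300.2 FPKM in T191, 125 and 458 FPKM in T147, 59.3 and 146 FPKM in T209, and 374 and 12.1 FPKM in T210. All of these genes lack a RefSeq gene, and the files give them no function.

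**Figure D2:**
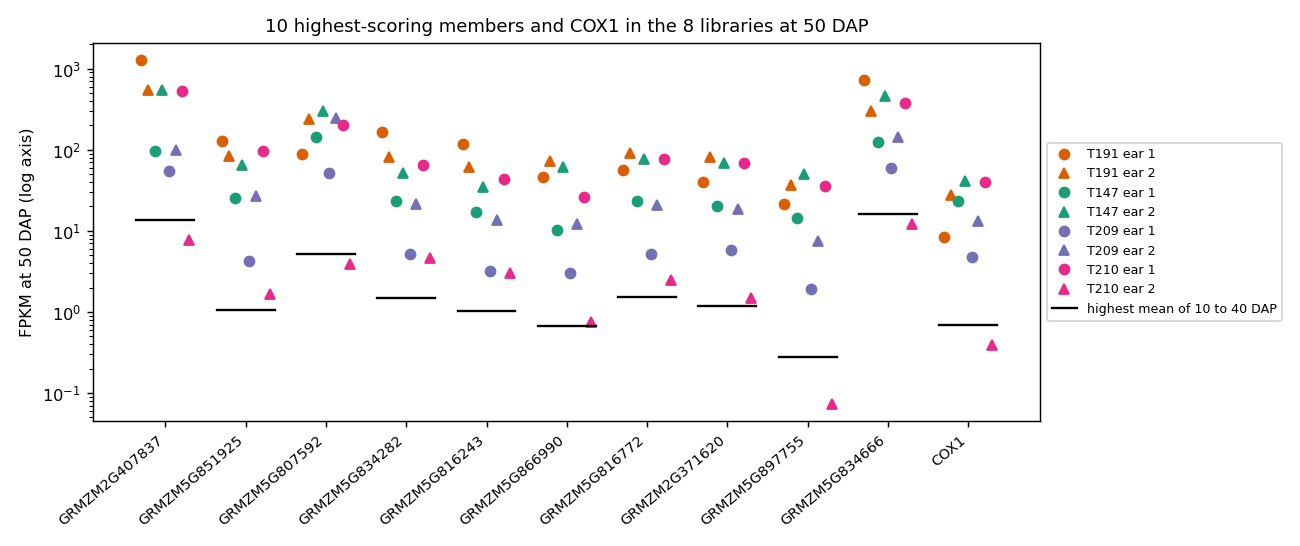
FPKM at 50 DAP on a log axis for the 10 members with the highest scores and for COX1, with 1 point for each of the 8 libraries. Colours mark lines, circles ear 1 and triangles ear 2, and the black bar is the highest mean of 10 to 40 DAP. Ear 2 of T210 is the lowest point in every column, and ear 1 of T209 is the next lowest in most of them.

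Identical values mark genes whose reads were not separated. There were 11 members in 4 such groups, so the 150 members hold 143 distinct profiles. Besides the 4 genes above they were GRMZM2G063126 with GRMZM2G168079, GRMZM2G379237 with GRMZM2G393215, and GRMZM2G136085 with GRMZM2G155783 and GRMZM2G417859. Members with an identical copy made up 7.33% of the 150, and 5.81% of all 9080 genes had one. The level of any one gene of such a group is uncertain, and so is that of near-identical genes.

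A mitochondrial gene had the same time course as the first members, although its name kept it outside the GRMZM genes ranked. COX1, which encodes a core subunit of cytochrome c oxidase in the mitochondrial genome, had means of 0.0990, 0.682, 0.404, 0.306 and 19.9 FPKM from 10 to 50 DAP, and its score would have been 12.4. At 50 DAP it had 8.38 and 27.8 FPKM in T191, 23.4 and 41.5 FPKM in T147, 4.80 and 13.1 FPKM in T209, and 40.1 and 0.392 FPKM in T210. It was lowest in ear 2 of T210 and next lowest in ear 1 of T209, as were most of the first members. In ear 1 of T191 COX1 had 8.38 FPKM, its lowest value apart from those ears. GRMZM2G407837, GRMZM5G851925, GRMZM5G834282 and GRMZM5G816243 were highest in that ear, and GRMZM5G807592 was not. The highest value fell in ear 1 of T191 for 43 members. It fell in ear 2 of T147, where COX1 was highest, for 17 members. The 50 DAP minus 40 DAP difference of COX1 was 3.41 on the log2(FPKM + 1) scale. COX1 was singled out after its values were seen, so this difference is a description, and nothing is read from a test of it. RPL16, a ribosomal protein gene whose symbol occurs in both organelle genomes, had means of 0.0908 FPKM at 40 DAP and 3.07 FPKM at 50 DAP. Of the other symbols in both genomes, RPS3 had means of 0.0792 and 0.184 FPKM and RPS4 had 194 and 202 FPKM. COX1 was the only symbol found in the mitochondrial genome alone, so no mitochondrial pattern is read from it. Of 43 symbols found only in the plastid genome, 41 stayed under 1 FPKM at 50 DAP. Whether members share reads with organelle sequences was not tested.

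A total of 128 rows without a GRMZM name scored at least as high as the last member, among 1764 such rows with at least 5 FPKM at 50 DAP. They were 117 unnamed loci of the read assembly and 11 rows with other names, COX1 among them.

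The members with a RefSeq gene reached higher levels. GRMZM2G011006 had the highest mean of all members, with 915 and 960.3 FPKM in T191, 682 and 723 FPKM in T147, 558 and 1036 FPKM in T209, and 1264 and 115 FPKM in T210 at 50 DAP. It was already expressed before, with means of 7.23, 8.07, 17.5 and 131 FPKM from 10 to 40 DAP. GRMZM2G061206 ranked first among the members with a RefSeq gene. It had 81.8 and 89.6 FPKM in T191, 89.2 and 87.2 FPKM in T147, 31.5 and 176 FPKM in T209, and 58.9 and 4.09 FPKM in T210, after a mean of 5.95 FPKM at 40 DAP. GRMZM2G325650 had a mean of 257 FPKM at 50 DAP, against 37.7 FPKM at 40 DAP. RefSeq lists these 3 genes under numbered locus names only.

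Members with a gene symbol included 3 of the TIFY family, whose JAZ proteins repress jasmonate signalling and whose transcripts are themselves induced by jasmonate in Arabidopsis. GRMZM2G145458 (TIFY10) had 102 and 37.4 FPKM in T191, 97.2 and 50.9 FPKM in T147, 18.7 and 33.2 FPKM in T209, and 15.8 and 0.163 FPKM in T210 at 50 DAP. Its means at earlier DAP were at most 4.15 FPKM. GRMZM2G173596 (TIFY20, also ZIM10) had 108 and 58.3 FPKM in T191, 58.4 and 60.4 FPKM in T147, 9.71 and 52.8 FPKM in T209, and 30.4 and 1.32 FPKM in T210. Both genes were lowest in ear 2 of T210, where TIFY10 (0.163 FPKM) lay between the 40 DAP ears of that line (0.376 and 0.0974 FPKM). GRMZM2G145412 (TIFY9, also ZIM18) was lower, with a median of 7.11 FPKM and a range from 0.0817 to 27.5 FPKM over the 8 libraries.

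Among the 17 other TIFY genes tested, 1 was higher and 1 was lower at 50 DAP than at 40 DAP, and 15 were neither (limma, Benjamini-Hochberg adjusted p under 0.05). The counts were 1 and 3 without ear 2 of T210 at 50 DAP. Their median log2 difference was -0.26, beside a median of -0.02 over all genes tested. The 3 members were set apart for their rise, so these values lean low, and with them the median was -0.24. The higher gene of the 17 was GRMZM2G058479 (TIFY21), with a log2 difference of 0.44, and the lower was GRMZM2G343157 (TIFY1), with -1.24. Over all genes tested, 15.9% were higher and 16.9% lower in this comparison, and over genes with at least 5 FPKM at 50 DAP the shares were 23.2% and 14.7%. The same test called 149 of the 150 members higher and 0 lower, as their choice implies, so nothing is read from it.

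GRMZM2G380377 (EREB56, also DBP4), an AP2/EREBP transcription factor gene, had 13.4 and 6.14 FPKM in T191, 11.9 and 7.31 FPKM in T147, 3.16 and 3.96 FPKM in T209, and 24.9 and 1.42 FPKM in T210 at 50 DAP, after 1.79 FPKM at 40 DAP. Of 26 other EREB genes, 3 were higher and 5 were lower at 50 DAP than at 40 DAP (4 and 5 with the member counted). Over all genes tested, 15.9% were higher and 16.9% were lower. Without ear 2 of T210 at 50 DAP, 5 of the 26 were higher and 5 were lower. GRMZM2G047732 is listed with the symbols RPL27A, RPS27A and UBF9, and was uneven between ears, with 14.6 and 34.4 FPKM in T191, 5.01 and 70.6 FPKM in T147, 2.85 and 7.28 FPKM in T209, and 10.4 and 0 FPKM in T210. It was also listed at 0 in 20 of the 32 earlier libraries. The other members with a name that is not a locus number carry clone or marker names, and they are GRMZM2G003090 (pco062216), GRMZM2G097900 (si606063b10), GRMZM2G150838 (pco127654a), GRMZM2G413337 (umc1277) and GRMZM2G340807 (TIDP2950). Their means at 50 DAP lay between 18.4 FPKM in GRMZM2G340807 and 183 FPKM in GRMZM2G003090.

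Some gene groups known from seed maturation had no gene among the members, but they were small. Only 18 of their genes (11 heat shock, 2 LEA or dehydrin, 1 oleosin and 4 zein genes) reached 5 FPKM at 50 DAP, and 1.65% of all genes at that level were members, so the absence is no result. In the comparison of 50 DAP with 40 DAP, 15.9% of all genes tested were higher and 16.9% were lower. Over genes with at least 5 FPKM at 50 DAP the shares were 23.2% and 14.7%. Of 15 heat shock protein genes, which encode chaperones, 9 were higher and 1 was lower at 50 DAP than at 40 DAP, with a median log2 difference of 1.44. Of 5 LEA and dehydrin genes, whose proteins protect cells during drying, 1 was higher and 1 was lower. Of 9 zein genes, which encode storage proteins of the starchy endosperm, 0 passed in limma and 0 at an unadjusted p under 0.05, with a median log2 difference of -0.56, and no other test was run. Of the 3 oleosin genes, whose proteins coat oil bodies, 1 was higher and 0 were lower. The transcription factor lists held 18 WRKY genes (2 higher, 1 lower), 40 MYB genes (10 and 11), 20 NAC genes (3 and 4) and 27 bZIP genes (8 and 8), and none of these was a member. These groups were taken by symbol after the files were seen. Without ear 2 of T210 at 50 DAP, 10 heat shock genes were higher and 2 were lower. The counts were then 5 and 2 for WRKY, 11 and 11 for MYB and 5 and 4 for NAC genes. Those of the other groups in this paragraph did not change.

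Ear 2 of T210 was the lowest of the 8 libraries at 50 DAP in 113 of the 150 members. Over all 9080 genes with at least 5 FPKM at 50 DAP, this ear was lowest in 31.7%. The median member had 1.81 FPKM in ear 2 and 21.6 FPKM in ear 1, and the median ratio of ear 2 to ear 1 was 6.55%. The ears of T210 at 40 DAP had medians of 1.10 and 0.565 FPKM. In 134 members (89.3%) ear 2 was nearer on the log2 scale to the mean of the 40 DAP ears of T210 than to ear 1 at 50 DAP, which held for 62.7% of the other genes with at least 5 FPKM. Ear 2 was below ear 1 in 95.3% of the members and in 50.9% of the other genes. It was above every earlier library of T210 in 63 members. The members with and without a RefSeq gene were alike in this, with medians of 9.04% and 4.95% of ear 1. What sets this ear apart was not tested.

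**Figure D3:**
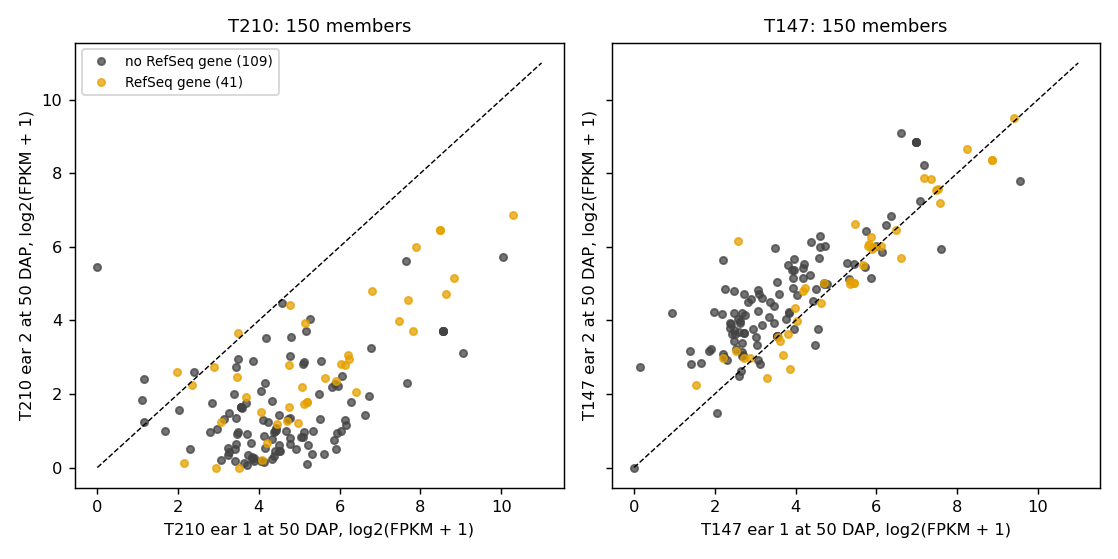
Levels of the 150 members at 50 DAP in ear 2 (vertical axis) against ear 1 (horizontal axis) as log2(FPKM + 1), for T210 on the left and for T147 on the right. Each point is a member, dark without and orange with a RefSeq gene, and the dashed line marks equal levels. In T210, 143 of 150 members lie below the line, and in T147, 116 lie above it, by a median of 0.65 over all members.

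One member owed its place to that ear. GRMZM2G404530 had 43.2 FPKM in ear 2 of T210 and at most 0.378 FPKM in the other 7 libraries at 50 DAP, so that 97.6% of its total at 50 DAP came from 1 library. The next shares were 48.6% in GRMZM2G047732 (ear 2 of T147), 48.5% in GRMZM2G377168 (ear 1 of T210), 46.6% in GRMZM2G451769 (ear 2 of T147) and 46.4% in GRMZM2G031432 (ear 1 of T191). The median over members was 27.9%. By library, the highest of the 8 values fell in ear 1 of T191 for 43 members, ear 1 of T210 for 29, ear 2 of T191 for 23, ear 1 of T209 for 19, ear 2 of T147 for 17, ear 2 of T209 for 13, ear 1 of T147 for 5 and ear 2 of T210 for 1.

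Across the 8 libraries at 50 DAP the members varied together, which is given as a description because they were chosen on these libraries. The median Pearson correlation between 2 members on the log2 scale was 0.62 over 8 libraries, beside 0.08 between all genes with at least 5 FPKM. It was 0.70 within the members without a RefSeq gene and 0.57 within those with one. The medians over 7 libraries, without ear 2 of T210, were 0.27 for all members, 0.52 without a RefSeq gene and 0.02 with one. The median between all genes with at least 5 FPKM was then 0.09. The correlation within members with a RefSeq gene thus rested on that ear, and so did much of that over all members. The median correlation of members with COX1 was 0.75 over 8 libraries. Over 7 libraries it was 0.59 for members without a RefSeq gene and 0.06 for those with one.

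T209 was low at 50 DAP in the members without a RefSeq gene. Their medians were 20.5 and 20.5 FPKM in T191, 9.29 and 18.0 FPKM in T147, 2.59 and 9.18 FPKM in T209, and 19.9 and 1.34 FPKM in T210. The members with a RefSeq gene had medians of 44.8 and 40.9 FPKM in T191, 42.8 and 32.9 FPKM in T147, 40.9 and 52.8 FPKM in T209, and 33.7 and 4.56 FPKM in T210. The medians of T209 were low in the members without a RefSeq gene, and ear 2 of T210 was low in both sets. The difference between the sets was not tested. Both ears of T209 were below all 4 ears of T191 and T147 in 64 members, of which 56 were among the 109 without a RefSeq gene and 8 among the 41 with one. This was so for 7.48% of all genes with at least 5 FPKM at 50 DAP. They were above all 4 in 12 members, against 19.1% of those genes. Relative depth was 1.07 and 0.907 in T209 and between 0.610 and 0.998 in T191 and T147, and its part was not tested.

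The line differences at 50 DAP were tested with limma on log2(FPKM + 1), with p-values adjusted by the Benjamini-Hochberg method over 43394 genes. A mean over 4 lines can be high because of 1 line, so the choice of members bears on these counts. Between T191 and T147, 7 members were higher and 3 were lower in T191, where 5.75% and 2.95% of all genes tested were called. The shares of members, 4.67% and 2%, were near those of all genes and of genes with at least 5 FPKM at 50 DAP (3.19% and 1.46%). With libraries rescaled by their median ratio the counts were 4 and 3. Without ear 2 of T210, which enters only through the shared spread, the counts were 21 and 5. In that fit these were 14% and 3.33% of the members, against 4.03% and 1.74% of genes with at least 5 FPKM at 50 DAP and 6.47% and 3.13% of all genes tested. The shares were thus near the background with all libraries, and the higher share was above it without that ear. The median difference was 0.46, beside 0.12 over all genes tested (0.28 and 0.04 after rescaling), and 113 of 150 differences were positive.

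GRMZM2G127035 had 49.1 and 31.6 FPKM in T191 and 1.88 and 3.76 FPKM in T147 at 50 DAP, and the log2 difference was 3.45 (SE 0.98, limma adjusted p = 0.0258). It was also high in T209, with 73.1 and 91.2 FPKM, against 25.8 and 2.11 FPKM in T210. GRMZM2G067946 had 18.6 and 18.8 FPKM in T191 and 3.16 and 1.80 FPKM in T147, a difference of 2.53 (SE 0.54, adjusted p = 0.00307). GRMZM2G069126 had 40.4 and 18.6 FPKM in T191 and 3.895 and 6.57 FPKM in T147, a difference of 2.23 (SE 0.56, adjusted p = 0.0120). In these 3 genes the ears of T191 and T147 did not overlap. Each of the 3 calls was lost when 1 or more of the 4 ears was left out, with adjusted p up to 0.191, 0.0536 and 0.215.

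The 3 members lower in T191 were GRMZM2G451769, GRMZM2G358987 and GRMZM2G002465. GRMZM2G451769 had 13.1 and 6.96 FPKM in T191 and 52.9 and 85.0 FPKM in T147, a difference of -2.68 (SE 0.49, limma adjusted p = 0.000657), and its call held with any ear left out. T147 was the high line, since T209 had 5.61 and 10.1 FPKM and T210 had 6.19 and 2.39 FPKM. GRMZM2G358987 had 10.6 and 11.7 FPKM in T191 and 42.8 and 45.05 FPKM in T147 (difference -1.88, adjusted p = 0.0112). GRMZM2G002465 had 3.49 and 7.96 FPKM in T191 and 20.6 and 22.3 FPKM in T147 (difference -1.82, adjusted p = 0.0230). The last 2 calls were lost when ear 1 of T191 or either ear of T147 was left out (adjusted p up to 0.0886 and 0.318).

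Between the parents at 50 DAP the result rested on which ear of T210 was used. With all libraries, 29 members were higher and 6 were lower in T209 than in T210 (limma), where 12.8% and 5.07% of all genes tested and 16.4% and 4.75% of genes with at least 5 FPKM at 50 DAP were called. With libraries rescaled by their median ratio the counts were 20 and 8, and the median difference turned to -0.12. Without ear 2 of T210, 7 members were higher and 68 were lower in T209, and of the 68 lower members 62 had no RefSeq gene. In that fit 10.2% and 4.53% of genes with at least 5 FPKM were called. Without ear 1 of T210, 82 were higher and 4 were lower, where 17.8% and 5.83% of those genes were called. The median difference was 0.11 with all libraries, -1.66 without ear 2 and 1.66 without ear 1. The fits with 1 ear of T210 assume that this ear varies as ears of the other groups do. The direction of most calls between T209 and T210 thus changed with the ear of T210 used.

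**Figure D4:**
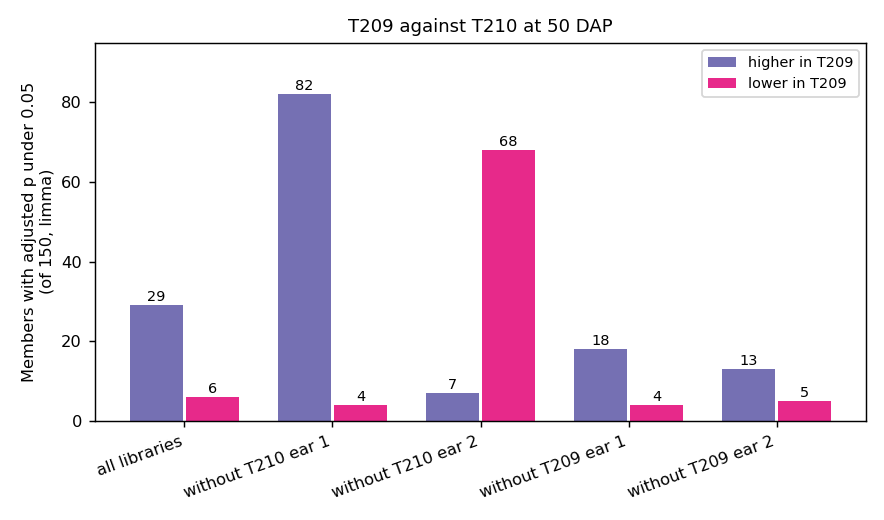
Number of the 150 members called higher (left bar of each pair) or lower (right bar) in T209 than in T210 at 50 DAP, with an adjusted p under 0.05 in limma, for all libraries and with each of the 4 ears left out in turn. The counts turn round between leaving out ear 1 of T210 (82 and 4) and leaving out its ear 2 (7 and 68).

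Some members differed between the parents with either ear of T210. GRMZM2G466982 had 47.8 and 26.3 FPKM in T209 and 1.24 and 4.27 FPKM in T210, a log2 difference of 3.41 (SE 0.50, limma adjusted p = 3.55e-05). The ears of T191 and T147 had between 26.5 and 30.7 FPKM, so that T210 was the low line. GRMZM5G826830 had 29.0 and 20.9 FPKM in T209 and 1.14 and 2.56 FPKM in T210, a difference of 3.22 (SE 0.35, adjusted p = 5.83e-07). GRMZM2G127035, also named above, had a difference of 3.18 whose call was lost without ear 2 of T210 (1.62, adjusted p = 0.420) and without either ear of T209 (adjusted p = 0.0757 and 0.142).

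The largest differences in the other direction belonged to 3 members that were nearly silent in T209. GRMZM5G850922 had 0.158 and 0.0935 FPKM in T209 and 34.5 and 14.2 FPKM in T210 at 50 DAP, a log2 difference of -4.37 (SE 0.44, limma adjusted p = 2.23e-07). GRMZM2G034991 had 0.0849 and 0.0256 FPKM in T209 and 34.7 and 11.99 FPKM in T210 (difference -4.35, adjusted p = 6.02e-07). GRMZM2G451394 had 0.0441 and 0.0166 FPKM in T209 and 26.8 and 10.7 FPKM in T210 (difference -4.13, adjusted p = 5.50e-07). T191 and T147 had between 20.5 and 75.8 FPKM in these 3 genes, and both ears of T209 were listed at 0 at 30 and 40 DAP in each of them. Over 40 libraries their log2 values correlated at 0.995 to 0.998, so the 3 genes may share reads and are uncertain as separate genes. All 3 calls held with any of the 4 ears left out.

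At 40 DAP, where the choice of members used only the mean over lines, 18 members were higher and 0 were lower in T191 than in T147 (limma), where 6.77% and 7.04% of all genes tested and 11% and 4.53% of genes with at least 5 FPKM at 50 DAP were called. With all libraries, the share of members called higher, 12%, was near the 11% of genes with at least 5 FPKM at 50 DAP. Ear 2 of T210 at 50 DAP enters only through the shared spread. Without it the higher share of members was above that of these genes, and the count of lower members was not 0. No other test was run for the count of 0. At an unadjusted p under 0.05, 45 members were called in either direction. The difference was positive in 134 of 150 members, with a median of 0.62 against 0.23 over genes with at least 5 FPKM. It was 1.55 in the members with a RefSeq gene and 0.32 in the others. The 18 calls became 2 without ear 1 of T191, in which members with a RefSeq gene had a median of 16.2 FPKM, the highest of the 40 DAP libraries. They became 4 without ear 1 of T147, 34 without ear 2 of T191 and 37 without the T210 ear at 50 DAP.

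Between T209 and T210 at 40 DAP, 17 members were higher and 4 were lower in T209, where 17.1% and 10.4% of all genes tested and 26.7% and 6.63% of genes with at least 5 FPKM at 50 DAP were called. The shares of members, 11.3% and 2.67%, were below these. The median difference was 0.01 over all members (-0.06 after rescaling, which moved the median of all genes by -0.13) and 0.83 in those with a RefSeq gene, and 21 calls became 13 without ear 2 of T210 at 40 DAP.

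Whether the step between 40 and 50 DAP differed between lines was also tested. The levels at both times entered the choice of members as means over the lines. A large mean step can come from 1 line or 1 ear, so the choice bears on these counts. Between T191 and T147, 0 members had a larger step and 4 had a smaller step in T191 (limma), where 3.35% and 2.25% of all genes tested and 0.98% and 0.969% of genes with at least 5 FPKM at 50 DAP were called, and 28 members passed an unadjusted p under 0.05. The counts were 1 and 14 without ear 2 of T210, where 1.37% and 1.66% of genes with at least 5 FPKM were called. Between T209 and T210, 0 members differed in either direction, with 13 at an unadjusted p under 0.05, where 1.06% and 0.606% of all genes tested and 0.496% and 0.396% of genes with at least 5 FPKM were called. No other test was run for these counts of 0. Without ear 2 of T210 at 50 DAP, 1 member had a larger and 37 had a smaller step in T209, and 35 of the 37 had no RefSeq gene. In that fit 0.716% and 1.37% of genes with at least 5 FPKM were called.

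The step between 30 and 40 DAP is given as a description, because the highest earlier mean divides the score and so the levels at 30 and 40 DAP entered the choice of members. Of the 150 members, 43 were called higher and 1 was called lower at 40 DAP (limma, mean of the 4 lines), where 17.3% and 18.6% of all genes tested and 33.1% and 10.8% of genes with at least 5 FPKM at 50 DAP were called. Nothing is read from the members' 28.7% against these shares. Of the members with a RefSeq gene 16 of 41 were higher, with a median log2 difference of 0.78. Of the others 27 of 109 were higher, with a median of 0.03, and 81 were not called. The difference between the 2 sets was not tested.

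**Figure D5:**
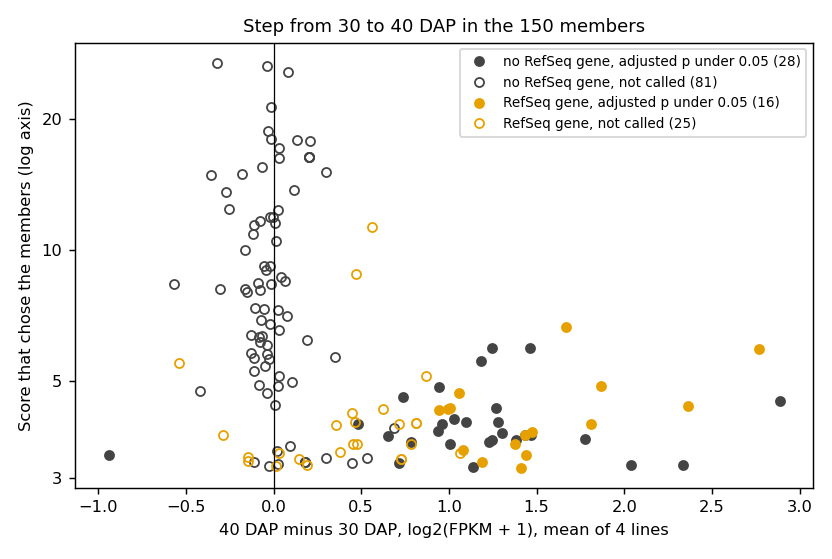
Score that chose the members (vertical log axis) against the 40 DAP minus 30 DAP difference in log2(FPKM + 1) (horizontal axis, mean of the 4 lines) for the 150 members, dark without and orange with a RefSeq gene. Filled points passed an adjusted p under 0.05 in limma. Members with the highest scores stand near a difference of 0, and the filled points lie among the lower scores, in a plot whose score holds the 40 DAP level.

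GRMZM2G011006 had between 45.1 and 307 FPKM at 40 DAP (median 93.3) and between 3.53 and 33.05 FPKM at 30 DAP (median 17.4), a log2 difference of 2.77. The 2 ranges did not overlap. GRMZM2G165919 had between 1.64 and 16.7 FPKM at 40 DAP (median 11.99) and between 0.511 and 1.25 FPKM at 30 DAP (median 0.909), a difference of 2.36, also without overlap. At 50 DAP this gene had 9.90 and 40.4 FPKM in T191, 57.5 and 75.9 FPKM in T147, 46.2 and 82.7 FPKM in T209, and 84.2 and 3.18 FPKM in T210. Ear 1 of T191 and ear 2 of T210 were therefore no higher than some ears at 40 DAP.

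GRMZM2G012716 had the largest step, with a difference of 2.89, but it was irregular between ears. It had between 0.0530 and 58.9 FPKM at 40 DAP and at most 0.0740 FPKM at 30 DAP. At 20 DAP it had been between 1.88 and 226 FPKM, and at 50 DAP it was between 33.5 and 1047 FPKM. The ears of T147 at 40 DAP, with 0.0530 and 58.9 FPKM, spanned the whole range of that time. GRMZM5G806805 was the only member called lower at 40 DAP, with a median of 0.743 FPKM, against 2.60 FPKM at 30 DAP (log2 difference -0.94), and its ranges overlapped. Its call was lost in 12 of 17 fits with 1 ear left out.

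At the edge of the list, GRMZM2G031280 and GRMZM2G046317 were the last members with scores of 3.17 each, and GRMZM2G542272 and GRMZM2G077760 were just outside with scores of 3.11 and 3.10. GRMZM2G046317 had a mean of 174 FPKM at 50 DAP and 54.4 FPKM at 40 DAP. GRMZM2G031280 had 14.4 and 3.84 FPKM. The list depended more on the lines and ears than on the scaling. With the score taken from ear 1 alone 121 of the 150 members were chosen again, and from ear 2 alone 123. The lists from the single ears shared 99 genes, or 66% of each list. With the median in place of the mean 117 were chosen again. With 1 line left out, 124 (without T191) to 135 (without T209) were chosen again.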

How the data were processed

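The authors deposited 1 table of FPKM values for 65196 rows and 40 libraries, which were used as deposited. The submitters' processing notes name Bowtie 0.12.2, Cuffdiff and B73 RefGen_v3. FPKM keeps no read numbers, so depth is known only relative to other libraries, from the commonest ratio of low values, and no interval from counts is given. Rows whose genes overlap or are near-identical can share reads.

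Members were found by the rule given above. Values were analysed as log2(FPKM + 1), a scale that understates the changes of low genes, with limma 3.58.1 in R 4.3.3 (lmFit, contrasts.fit and eBayes with a trend). All 40 libraries entered 1 model with 20 group means (each line at each DAP) and 20 residual degrees of freedom. The 43394 rows that reached 1 FPKM in 2 or more libraries were tested, tests were two-sided, and the Benjamini-Hochberg threshold was 0.05. On simulated data from these 43394 genes, 69% of planted log2 changes of 2 and 8% of changes of 1 were recovered for T191 minus T147 at 50 DAP, and 96% and 61% for 40 DAP minus 30 DAP. False calls were 3.75% and 4.27%. Changes were planted only in genes with a mean log2(FPKM + 1) over 2, and each gene had the same spread in every group. Members were mostly low before 50 DAP, so these rates need not hold for them.

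RefSeq names (Zm-B73-REFERENCE-NAM-5.0) were matched by GRMZM synonym, and its coordinates were not used because the build differs. Gene groups were taken by symbol, in place of groups by description, which the table used does not hold. The members and the lists were chosen with earlier results of these data known. Genes named were the 10 with the highest scores, members with a symbol other than a locus number, the 3 with the largest called difference in each direction and comparison at 50 DAP without overlap between ears (for 40 DAP minus 30 DAP, among all called), the members next to the edge of the list and those with the largest share from 1 library. GRMZM2G011006, GRMZM2G061206, GRMZM2G325650, COX1 and RPL16 were also named after their values were seen, the first for its level as well as by rule. RPS3 and RPS4 were named as the other symbols in both organelle genomes. Promoter sequences were not analysed here.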

Additional observations from a re-analysis of the deposited data

Results flagged for a closer look

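The step between 40 and 50 DAP differed between T191 and T147 for 4 members by the test of that difference (limma). The choice of members used the means at both times and bears on this test. In GRMZM2G358987 the difference of differences was -3.23 on the log2(FPKM + 1) scale (SE 0.67, adjusted p = 0.00413). T191 had 10.6 and 11.7 FPKM at 50 DAP and 10.7 and 5.72 FPKM at 40 DAP, and T147 had 42.8 and 45.05 FPKM at 50 DAP and 1.55 and 3.80 FPKM at 40 DAP. The ears of T191 at 50 DAP overlapped those at 40 DAP, and those of T147 did not. GRMZM2G063126 and GRMZM2G168079, whose values are identical and cannot be separated, had a difference of differences of -3.82 each (SE 1.02, adjusted p = 0.0256). For both, T191 had 70.8 and 162 FPKM at 50 DAP and 83.8 and 69.9 FPKM at 40 DAP, and T147 had 468 and 328 FPKM at 50 DAP and 30.1 and 11.8 FPKM at 40 DAP. In GRMZM2G002465 the value was -2.38 (SE 0.72, adjusted p = 0.0499), which is close to the threshold.

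COX1 had a mean of 19.9 FPKM at 50 DAP, although it was outside the GRMZM genes ranked, and its means at 10 to 40 DAP were at most 0.682 FPKM. There were 128 rows without a GRMZM name that scored at least as high as the last member.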

How the results depend on the processing

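With single ears left out, the number of members called lay between 2 and 26 for T191 minus T147 at 50 DAP (10 with all libraries), between 18 and 86 for T209 minus T210 at 50 DAP (35), between 2 and 37 for T191 minus T147 at 40 DAP (18), between 13 and 31 for T209 minus T210 at 40 DAP (21), and between 36 and 53 for 40 DAP minus 30 DAP (44). The lowest came without ear 1 of T147 at 50 DAP, ear 2 of T209 at 50 DAP, ear 1 of T191 at 40 DAP, ear 2 of T210 at 40 DAP and ear 1 of T191 at 40 DAP, in this order. The highest came without ear 2 of T210 at 50 DAP, except for T209 minus T210 at 50 DAP, where it came without ear 1 of T210 and the direction of most calls turned. Fits without that ear 2 for the other 4 comparisons were added after the data were seen. Without ear 1 of T191, 4 members were called between T191 and T147 at 50 DAP, and without ear 1 of T209, 22 were called between the parents.

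A pseudocount of 0.1 gave 2 members between T191 and T147 at 50 DAP, and a model of these lines alone gave 31 at 40 DAP. The cause was not tested. The other counts under these settings, without the filter and with libraries rescaled stayed within 1.5 times. Rescaling turned the median difference of the members between T209 and T210 from 0.11 to -0.12 at 50 DAP and from 0.01 to -0.06 at 40 DAP. No value of a single named gene changed sign. Of 217 alternative values for 17 genes and comparisons, 34 passed the threshold no longer, 27 of them with an ear left out. With the ear number as a block, 10, 36, 19, 22 and 42 members were called in the comparisons T191 minus T147 and T209 minus T210 at 50 DAP, the same at 40 DAP, and 40 DAP minus 30 DAP. Differences between ear 1 and ear 2 had a median correlation of 0.01 over 190 pairs of groups. They ranged from -0.37 to 0.47, and 35 pairs were over 0.1. Whether some groups share a batch by ear number was not tested. The rule chose at least 136 members again without any one library, and 141, 129 and 144 with a pseudocount of 0.1, no minimum and rescaling. Low FPKM in the shallowest libraries (relative depth 0.610) are the least certain.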
